A study of Mus musculus with 64 samples.

Results

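Skeletal muscle of 5-month-old mice with body-wide inactivation of Myc was compared with muscle of wild-type mice of the same age. The members are the 10 libraries, of 64 in the series, that the labels give as muscle at 5 months, 4 from Myc-inactivated mice (KO) and 6 from wild-type mice (WT). KO mice came from crossing a B6.129 line with Cre-ERT2, a Cre that tamoxifen switches on, in Gt(ROSA)26Sor, to a line with the conditional allele Myctm2Fwa. WT mice were C57/B6, and both genotypes are labelled as given 5 tamoxifen doses (75 mg/kg), which began at weaning once a mouse weighed at least 15 g. The Cre is driven from a locus active in most cells of the body, so the inactivation was not limited to muscle fibres, and the labels name no particular muscle. KO mice carry strain names of both B6 and 129 and WT mice that of B6 alone, so the loss of Myc, an active Cre and inherited 129 sequence cannot be told apart in any difference between the groups. The study's title speaks of early ageing after Myc loss, and this comparison asks what differs in muscle of young adults, before the 20-month age that was also sampled.

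Myc is a transcription factor that pairs with Max and binds the E-box CACGTG. It drives genes of ribosome assembly, protein synthesis, nucleotide synthesis and mitochondrial function, while the Mxd proteins and Mnt pair with Max and repress the same sites. Adult muscle fibres do not divide, and Myc in muscle is known as a gene that is induced by loading, injury and stress and is low at rest.

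The libraries held between 15.4 M and 20.6 M gene reads and detected 17016 to 18563 genes each, and the 10 most abundant genes took 17.8% to 22.9% of reads. The 10 skeletal muscle markers examined, such as Acta1 and Ckm, summed to 105070 to 117437 CPM in KO and 97124 to 132774 CPM in WT libraries, with none at 0. CPM is the deposited read signal, named as in its header, and its columns sum to more than the usual total, so values compare libraries of this table only. Xist was present in 2 KO libraries (K5S5116, K5S5118) and 2 WT libraries (W5S5041, W5S5042), and the other 6 had Y-chromosome transcripts. The WT libraries W5S5277 and W5S5299 stood apart in genes of slow muscle fibres and are called slow-fibre-poor below. They were also the lowest of the 10 in the oxidative phosphorylation, cytosolic ribosomal protein, atrophy, and glucocorticoid and stress response lists. Leaving them out thus changes more than slow-fibre levels. W5S5041 and W5S5042 were high in stress genes, with heat shock lists summing to 26106 and 32888 CPM. The KO libraries K5S4284 and K5S5118 followed at 21408 and 20971 CPM, so values are given by library. The labels number the samples without stating that each is a separate mouse, and p-values measure the spread between these samples.

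Myc itself was measured at 10.8, 5.00, 7.80 and 17.1 CPM in the KO libraries K5S4284, K5S4285, K5S5116 and K5S5118. In the 6 WT libraries it ran from 6.15 CPM (W5S5277) through a median of 19.6 CPM to 81.3 CPM (W5S5042). The groups overlapped: 1 KO library lay below every WT library and 4 WT libraries lay above every KO library. Mean levels with SD were 10.2 ± 5.21 CPM for the 4 KO and 29.1 ± 27.1 CPM for the 6 WT libraries. The difference of mean log2(CPM + 1) was -1.13, with a two-sided exact permutation p of 0.105, where the smallest p that 210 assignments allow is 0.00952. Without W5S5277, the WT library with the least Myc, the difference was -1.46 and the exact permutation p was 0.0317. Leaving out the lowest WT library widens the difference by that choice alone. Without W5S5042, the WT library with the most Myc, the difference was -0.75 (exact permutation p 0.175). Among the libraries without Xist it was -0.80 (exact permutation p 0.267). The table counts reads over the whole gene, so reads of an excised and an intact allele cannot be told apart.

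The WT library with the most Myc was also the one with the most stress transcripts. W5S5042 had 4348 CPM of Hspa1b, a heat shock protein gene, and 2140 CPM of Ankrd1, a muscle gene induced by stretch and stress, against 45 CPM and 24.3 CPM in W5S5004. In a fit that held the levels of the slow-fibre and immediate early lists constant, chosen after these values were seen, Myc differed by -1.22 (limma unadjusted p 0.000133, adjusted 0.420). With both slow-fibre-poor WT libraries left out, also chosen afterwards, the difference was -1.54 (exact permutation p 0.0571). Hspa1b and Hspa1a are near-identical copies, so the split of reads between them is uncertain.

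**Figure D1:**
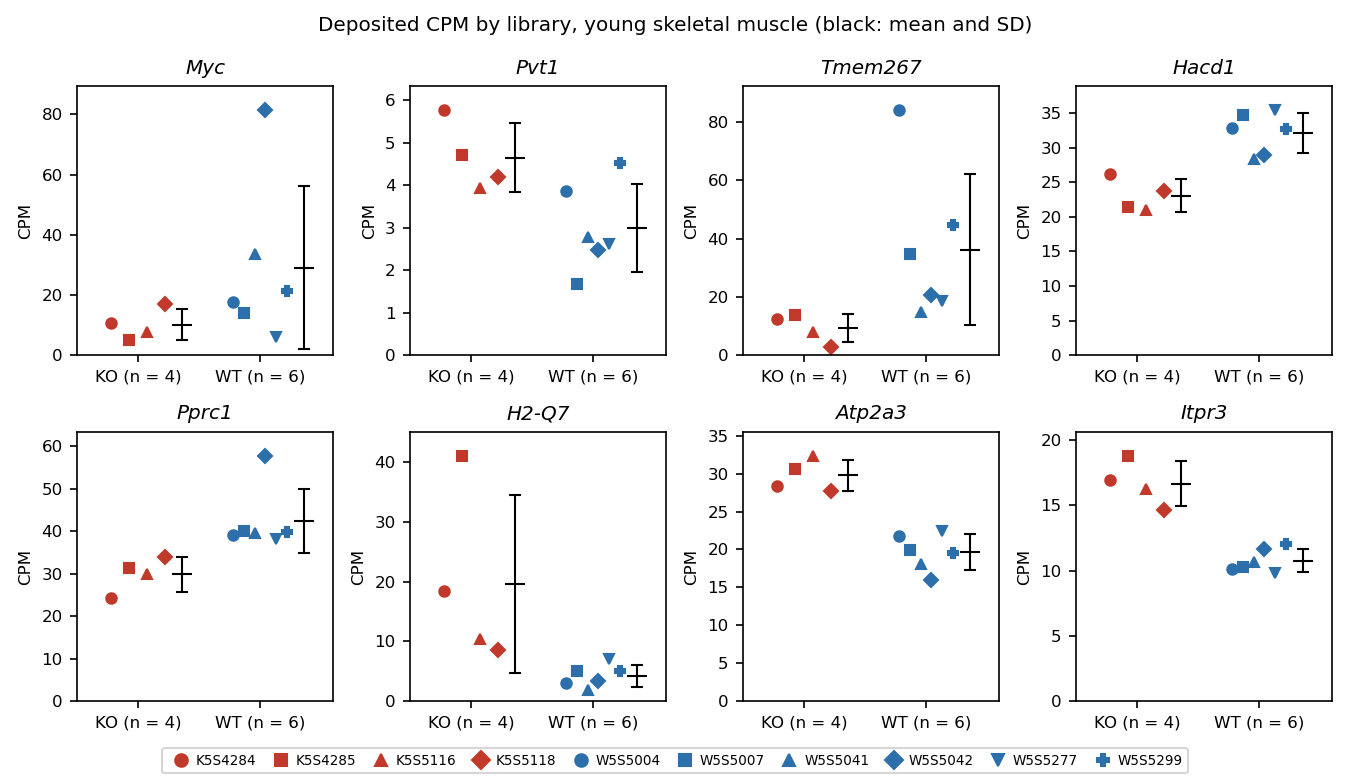
Deposited CPM (vertical axis, from 0) of 8 genes in each of the 4 KO (red) and 6 WT (blue) libraries of young muscle; each library keeps its symbol, and black marks give the mean and SD. Myc overlaps between the groups with 81.3 CPM in W5S5042, while Atp2a3, Itpr3 and H2-Q7 lie higher and Tmem267, Hacd1 and Pprc1 lower in all 4 KO libraries.

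No partner or rival of Myc passed the test. Of 13 genes of the Myc and Max network, 11 were abundant enough to be tested, 7 with a higher and 4 with a lower mean in KO, and none passed the test. Their median log2 difference was 0.054, beside 0.011 for all genes tested. Max, the obligate partner, differed by 0.075 (SE 0.173). Mnt, the most widely expressed repressor of the network, had a KO mean of 41 ± 7.9 CPM and a WT mean of 34.1 ± 6.75 CPM (log2 difference 0.27, SE 0.181, limma adjusted p 0.9999). Mxd1 differed by 0.19 (SE 0.192), Mxd4 by 0.21 (SE 0.169) and Mxi1, another repressor, by 0.086 (SE 0.146). Mga, a further Max partner, differed by -0.067 (SE 0.162), and Mlx, Mlxip and Mlxipl, the nutrient-sensing branch, by -0.030 (SE 0.139), 0.054 (SE 0.2) and -0.106 (SE 0.350). Mycl ranged from 0.332 to 3.59 CPM in KO and 0.138 to 5.37 CPM in WT, while Mycn and Mxd3 were too low to be tested.

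No gene at the engineered loci passed the test, but some differences were wide against those of all genes, whose 5th and 95th percentiles were -0.26 and 0.38. Pvt1, the long noncoding RNA gene beside Myc, had 5.76, 4.72, 3.93 and 4.18 CPM in KO and 1.67 to 4.51 CPM (median 2.71) in WT. All 4 KO libraries were above the WT median, and the groups overlapped (log2 difference 0.53, SE 0.202, limma unadjusted p 0.0233, adjusted 0.9999). Gt(ROSA)26Sor, the noncoding gene that holds the Cre, had 2.42, 1.8, 2.35 and 1.59 CPM in KO and 1.17 to 5.76 CPM (median 4.21) in WT. Its log2 difference was -0.60 (SE 0.288, unadjusted p 0.0615). Lratd2, another gene of that list, had 6.11 to 14.5 CPM in KO and 3.08 to 14.7 CPM in WT (log2 difference 0.41, SE 0.335). Pvt1, Gt(ROSA)26Sor and Lratd2 thus lay outside the percentile range of all genes. That range is not matched for level or spread, and the SE of each exceeded the median SE of 0.175 over all genes. Thumpd3 (0.13, SE 0.109) and Setd5 (-0.083, SE 0.134), neighbours of Gt(ROSA)26Sor, and Trib1 near Myc (-0.18, SE 0.563) overlapped between the groups. Counting by strand is not given in the sources used here, so reads of overlapping genes cannot be told apart. Among genes known beforehand to be called in other KO comparisons of the series, Kcnh6, a potassium channel gene, had 12.4, 11.5, 14.3 and 25.8 CPM in KO and 3.84 to 19.4 CPM in WT (log2 difference 0.82, SE 0.372). C130046K22Rik had 1.68 to 2.86 CPM in KO and 0 to 2.04 CPM in WT (log2 difference 0.73, SE 0.351), and Rasgef1b differed by 0.51 (SE 0.307). Acbd4 differed by -0.08 (SE 0.0964), and the groups overlapped for each of these genes, as they did for Cdkn2c (0.0052, SE 0.340) and Wnt4 (0.025, SE 0.183). Bid, Mug2 and Cd8a were too low to be tested.

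Across the transcriptome no gene was called. Of 12748 genes above 1 CPM in 4 or more of the 10 libraries, 0 (0% of those tested) passed an adjusted p of 0.05 in limma on log2(CPM + 1), and the smallest adjusted p was 0.9999. At an unadjusted p under 0.05, 278 genes (2.18%) were higher and 97 (0.761%) lower in KO, a total of 375. If no gene differed, a share near 0.05 would be expected at that threshold, and the total lay below it. The shares of all genes set beside list counts are these observed shares, not the expected one. edgeR's quasi-likelihood test on recovered reads also called 0 genes, with 404 at an unadjusted p under 0.05. DESeq2 on the same reads called 9 genes, 6 higher and 3 lower, which is 0.0707% of those it adjusted. The median SE of a log2 difference was 0.175.

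The 9 genes that DESeq2 called include a pair of calcium-handling proteins that were higher in KO. Itpr3, an inositol trisphosphate receptor that releases calcium from the endoplasmic reticulum (chromosome 17: 27057002 to 27122223, GRCm38.p6), had 17, 18.8, 16.2 and 14.6 CPM in KO and 9.80 to 12.1 CPM (median 10.5) in WT. Every KO library was above every WT library. DESeq2 put it at 0.62 on the log2 scale (SE 0.127, adjusted p 0.0081), and limma at 0.58 (SE 0.109, adjusted p 0.9999).

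Atp2a3, a calcium pump of the endoplasmic reticulum (chromosome 11: 72961169 to 72993043), had 28.4, 30.7, 32.3 and 27.8 CPM in KO and 15.9 to 22.4 CPM (median 19.7) in WT. Again all KO libraries were above all WT libraries, at 0.59 on the log2 scale in DESeq2 (SE 0.124, adjusted p 0.00852) and 0.58 in limma (SE 0.114). Fmo1, a flavin-containing monooxygenase that oxidises drugs and other small molecules, was narrow in both groups. It had 32.2, 33.2, 32 and 32.9 CPM in KO and 21.3 to 27.1 CPM (median 23.4) in WT (DESeq2 log2 fold change 0.43, SE 0.0954, adjusted p 0.0114).

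C130074G19Rik, a gene of unstudied function, had 27.9, 27.7, 30.6 and 26.6 CPM in KO and 19.4 to 22 CPM in WT, with no overlap (DESeq2 log2 fold change 0.44, adjusted p 0.0114). Dynlt1b, a light chain of the motor dynein, had 34.9, 32.7, 17.9 and 24.9 CPM in KO and 13.5 to 18.1 CPM in WT. It overlapped through K5S5116, and its DESeq2 log2 fold change was 0.83 (SE 0.198, adjusted p 0.0384). Dynlt1 genes have close copies, so its reads are uncertain. H2-Q7, the sixth gene higher in KO, is described below with MHC class I.

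The 3 genes that DESeq2 called lower in KO act in membranes, lipid synthesis and protein folding. Kcng4, a subunit that modulates voltage-gated potassium channels, had 15.4, 22.2, 18.1 and 15 CPM in KO and 22.1 to 38.6 CPM (median 33.1) in WT, and only K5S4285 and W5S5042 touched (DESeq2 log2 fold change -0.88, SE 0.188, adjusted p 0.00975). Hacd1, an enzyme of very-long-chain fatty acid synthesis that is abundant in muscle, had 26.2, 21.4, 21 and 23.7 CPM in KO and 28.4 to 35.4 CPM (median 32.7) in WT. No library overlapped (DESeq2 log2 fold change -0.49, SE 0.111, adjusted p 0.015). Cct6a, a subunit of the cytosolic chaperonin that folds actin and tubulin, had 92.7, 88, 84.3 and 78.9 CPM in KO and 103 to 117 CPM in WT, again without overlap (DESeq2 log2 fold change -0.35, adjusted p 0.0114). In limma the adjusted p of each of these 9 genes was 0.9999, and in edgeR it was 0.998 or more.

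A small set of genes had groups that did not overlap. In 63 genes (0.494% of those tested) all 4 KO libraries lay above all 6 WT libraries, and in 24 (0.188%) they lay below. With at least 5 CPM on average, 42 were above and 23 below. None of these passed limma's adjusted threshold. With 210 assignments of 4 against 6 libraries, a gene with no group difference would separate in either direction with a probability of 0.00952. The 63 and 24 genes together are a smaller share of those tested. Lack of overlap alone therefore does not mark a gene as changed, and the genes below are given as values.

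Among the genes below WT the largest difference of mean log2 levels was in Tmem267, a gene of a membrane protein (chromosome 13: 119488086 to 119610459), with 12.4, 13.8, 7.99 and 2.99 CPM in KO. WT libraries had 14.7 to 83.8 CPM (median 27.6), so the lowest WT library was just above the highest KO library. The log2 difference was -1.76 (SE 0.492, limma unadjusted p 0.00414). Pprc1, a coactivator related to PGC-1 that responds to growth signals, had 24.2, 31.3, 30 and 34 CPM in KO and 38.1 to 57.6 CPM (median 39.7) in WT (log2 difference -0.49, SE 0.139).

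The others of the 10 largest falls among these genes were smaller than that of Tmem267. Nol8, a nucleolar protein, had a KO mean of 15.1 ± 1.64 CPM and a WT mean of 20.5 ± 3.25 CPM (log2 difference -0.41). Pum3, an RNA-binding protein of the nucleolus, averaged 14.1 ± 0.805 and 18.3 ± 2.66 CPM (-0.35 on the log2 scale). Tars, the threonyl-tRNA synthetase, had 60.6, 58.4, 52.7 and 45.2 CPM in KO and 63.5 to 78 CPM in WT (-0.35). Tmcc1 (log2 difference -0.43), Dmpk, the kinase gene of myotonic dystrophy (-0.35), Tlcd4 (-0.36) and the uncharacterised Gm42226 (-0.60) were also among the 10, and the remaining genes below WT differed by less.

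Of the genes with at least 5 CPM on average that were higher in all KO libraries, Edem1 had the largest difference after H2-Q7. Edem1, which directs misfolded proteins out of the endoplasmic reticulum, had 62.9, 91.7, 81 and 133 CPM in KO and 21.1 to 60.7 CPM (median 46.9) in WT (log2 difference 1.05, SE 0.299). Efnb1, the membrane ligand ephrin-B1, had 25.7, 31.7, 30.7 and 36.3 CPM in KO and 12.7 to 23.8 CPM in WT (log2 difference 0.74, SE 0.168). Amotl2, an angiomotin-like regulator of the Hippo pathway, had 74.8, 77.4, 67.5 and 92.6 CPM in KO and 24 to 65 CPM in WT (log2 difference 0.76). Cldn1, a claudin of tight junctions, differed by 0.85, and leaving out K5S5116, its highest library at 12.4 CPM, kept the other KO libraries at 5.95 to 6.68 CPM, above the WT maximum of 4.63 CPM. Reln, a secreted signalling protein, differed by 0.77, Klf10, a transcription factor induced by TGF-beta, by 0.66, and Hrct1 by 0.61. H2-Aa, an MHC class II chain of antigen-presenting cells, had 23.8, 98.2, 31.4 and 29.3 CPM in KO and 11.3 to 23.6 CPM in WT, so the highest value came from K5S4285.

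Genes of ribosome assembly, the best known targets of Myc, had slightly lower means in KO as a group. All 50 listed genes were tested, 46 with a lower and 4 with a higher mean in KO, where 6025 of all 12748 genes were lower. The median log2 difference was -0.17, and 6 genes had an unadjusted p under 0.05, all lower, but 0 passed the adjusted threshold. Over all genes tested, 0.761% were lower at that p. Dkc1, the pseudouridine synthase of the H/ACA particle, had 16.1, 13.3, 13.4 and 15.2 CPM in KO and 16 to 22.1 CPM (median 19.8) in WT. Its groups met where the highest KO library, K5S4284, passed the lowest WT library (log2 difference -0.39, SE 0.116). Utp20, a scaffold of the small-subunit processome, had 18.7, 18.9, 19.3 and 16.9 CPM in KO and 21.3 to 25 CPM in WT, the 1 member of 50 without overlap, where 0.188% of all genes lay below WT (log2 difference -0.29, SE 0.093). Heatr1, another processome factor, differed by -0.39 (SE 0.139).

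These group medians depended on the libraries used. Among the 6 libraries without Xist, 2 KO and 4 WT, the ribosome assembly median was -0.043, with 32 of 50 genes lower. That setting also leaves out W5S5041 and W5S5042, the WT libraries high in stress genes, so sex is not isolated by it. With all 10 libraries and Xist as a covariate the ribosome assembly median was -0.18, with 47 lower. Without W5S5042 it was -0.11 with 39 lower, and without both slow-fibre-poor WT libraries it was -0.22 with 48 lower. The aminoacyl-tRNA synthetases, which charge tRNAs with amino acids, had 17 of 20 lower and a median of -0.11, which was -0.010 among libraries without Xist and -0.12 with the covariate. Tars and Rars, 2 of the 20, did not overlap between the groups, beside 0.188% of all genes that lay below WT. Besides Tars, Iars (log2 difference -0.27, SE 0.0996) and Eprs (-0.28, SE 0.130) had the smallest p of that list. Of 34 metabolic and growth targets of Myc, 27 were lower, with a median of -0.090, or -0.014 among libraries without Xist and -0.10 with the covariate. They include Ctps, a synthase of the pyrimidine nucleotide CTP (log2 difference -0.35, SE 0.158), Hspd1, the mitochondrial chaperonin (-0.30, SE 0.14), and Ppat, which starts purine synthesis (-0.34, SE 0.177).

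The E-box was more common in the promoters of ribosome assembly genes than in promoters at large. RefSeq promoter windows of 300 bases (250 before and 50 after a start site, GRCm38.p6, the most upstream start of each gene) were matched for 45 of the 50 genes. CACGTG, which reads the same on both strands, occurred in 12 of the 45 (26.7%), in 10.4% of the promoters of all genes tested and in 7.24% of all promoters. A pair with the motif upstream of the start is shown, with the motif in capitals, to show the letters searched for; they were chosen after the values were seen. Nop2 lies on chr6:125131796-125131855 (plus strand) and Imp4 on chr1:34439681-34439740 (plus strand).
Nop2: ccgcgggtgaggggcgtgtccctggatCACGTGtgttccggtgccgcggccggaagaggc
Imp4: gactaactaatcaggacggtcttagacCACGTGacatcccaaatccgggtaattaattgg
Nop2, an rRNA methyltransferase, had 28.1, 28.4, 31.4 and 31.8 CPM in KO and 30.5 to 43 CPM in WT (log2 difference -0.18, SE 0.12). Imp4, a processome protein, had 10, 10.6, 9.45 and 8.5 CPM in KO and 8.33 to 11.5 CPM in WT (-0.02, SE 0.12). Each of the 12 genes with a match had a lower mean in KO, from -0.019 (Imp4) to -0.29 (Utp20), as did 46 of all 50 listed genes. Whether a match goes with a lower level was not tested.

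Ribosome and respiratory chain subunits showed medians closer to 0. The median log2 difference was 0.019 for 83 cytosolic ribosomal protein genes, -0.029 for 78 mitochondrial ribosomal protein genes and 0.037 for 79 oxidative phosphorylation genes. These medians changed sign with the libraries included: the first ran from -0.22 without both slow-fibre-poor WT libraries to 0.26 among libraries without Xist. A single member of these lists, Mrpl42 of the mitochondrial ribosome, had an unadjusted p under 0.05 (log2 difference -0.24, SE 0.102). Over all 12748 genes 375 had such a p, a larger share than in these lists. Mrpl50 differed by -0.21 (SE 0.0985).

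**Figure D2:**
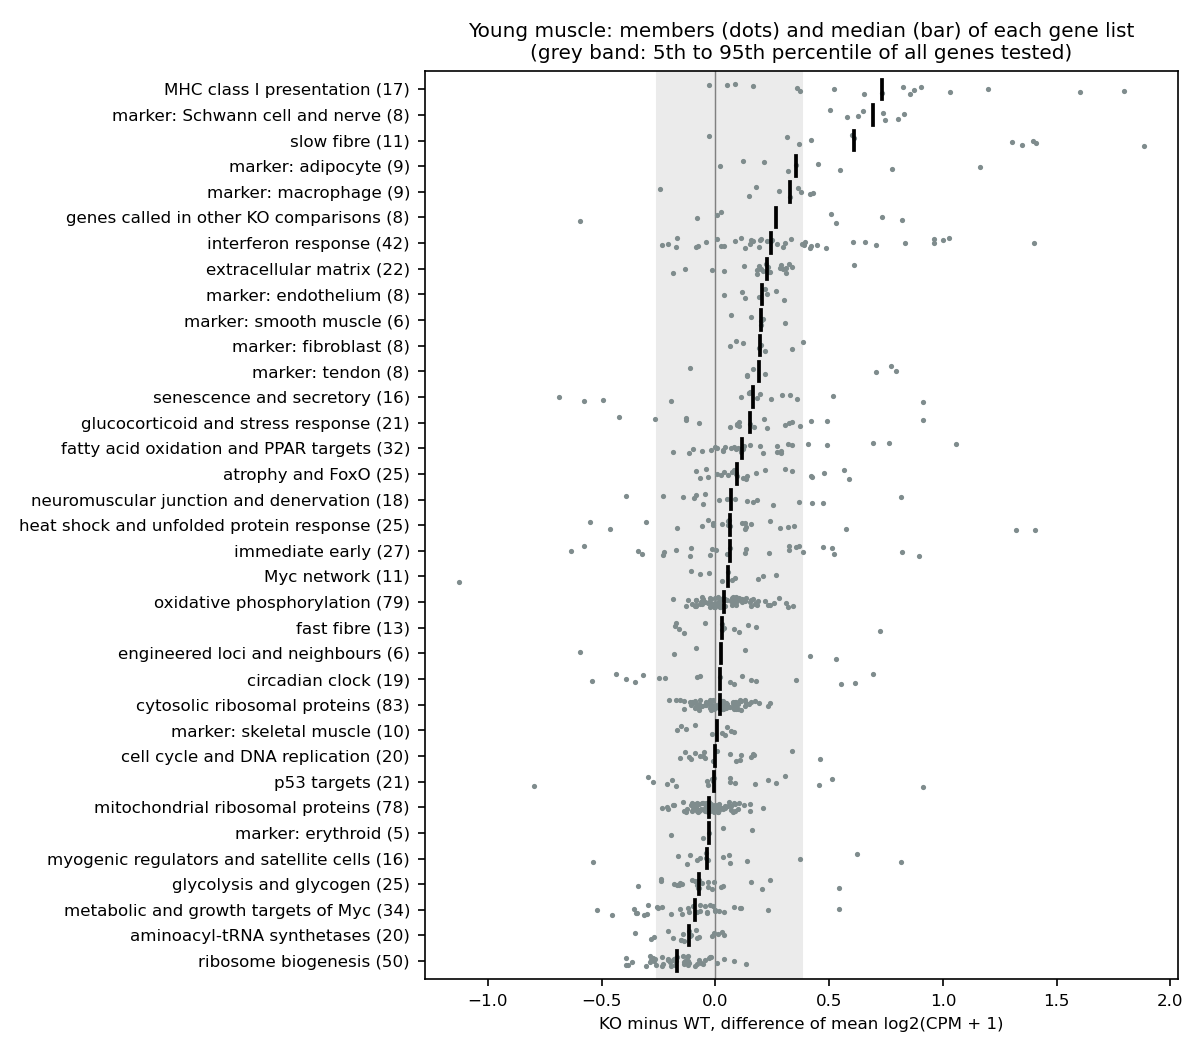
Log2 differences (KO minus WT, horizontal axis) of the tested members of each gene list with at least 5 of them, the sex chromosome markers left out, as dots, with the list's median as a black bar; numbers in parentheses count the members and the grey band spans the 5th to 95th percentile of all 12748 genes. Of the lists drawn, MHC class I presentation has the highest median (0.73) and ribosome biogenesis the lowest (-0.17).

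The clearest group difference was in MHC class I antigen presentation, the pathway by which cells show peptides of their own proteins to CD8 T cells. Of 17 genes listed and tested, 16 had a higher mean in KO, with a median log2 difference of 0.73. An unadjusted p under 0.05 was reached by 13 genes, all higher, where 2.18% of all genes were, and 0 passed the adjusted limma threshold. The difference took in the heavy chains, the light chain, the peptide transporter and subunits of the immunoproteasome. The list was known from earlier results of these data to differ in KO mice, so it is not independent evidence of a direction.

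H2-Q7, a heavy chain of the non-classical class Ib (chromosome 17: 35439140 to 35443773), had 18.5, 40.9, 10.4 and 8.57 CPM in KO and 1.89 to 7.11 CPM (median 4.18) in WT. It was the 1 member of 17 in which all KO libraries lay above all WT libraries, beside 0.494% of all genes (limma log2 difference 1.8, SE 0.402, unadjusted p 0.000903). DESeq2 called it, at 2.2 on the log2 scale (SE 0.454, adjusted p 0.0081). H2-Q6, its neighbour and near-identical copy, had 15.4, 30.2, 8.37 and 5.58 CPM in KO and 1.81 to 7.39 CPM in WT, so the split of reads between the pair is uncertain (log2 difference 1.6, SE 0.433). Tap1, which carries peptides into the endoplasmic reticulum, had 16.7, 25.4, 10.8 and 7.71 CPM in KO and 3.59 to 9.39 CPM in WT (log2 difference 1.2, SE 0.326).

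More abundant members differed by less. H2-D1, a classical heavy chain, had 232, 377, 211 and 166 CPM in KO and 107 to 199 CPM in WT (log2 difference 0.73, SE 0.225). B2m, the light chain beta-2 microglobulin, had 198, 253, 162 and 120 CPM in KO and 75.6 to 158 CPM in WT (log2 difference 0.65, SE 0.237). H2-T23, a class Ib heavy chain, had 30.1, 55.8, 23.8 and 21.4 CPM in KO and 11.5 to 25.9 CPM in WT (log2 difference 0.87, SE 0.276). These 3 genes were named after their values were seen, because their promoters are shown. Class I heavy chains resemble each other, so the assignment of reads among them is uncertain.

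In every one of these 6 genes K5S4285 was the highest library and K5S5118 the lowest of the KO group. K5S4285 also stood apart in lymphocyte markers. The 9 T cell markers summed to 27.9 CPM there, to 0.864 to 2.85 CPM in the other KO libraries and to 0.246 to 0.987 CPM in WT, and the 8 B and plasma cell markers summed to 42.9 CPM against 0.903 to 3.36 CPM in the other 9 libraries. Trac and Igkc, a defining gene of each type, were at 0 in all 10 libraries, K5S4285 among them. A value of 0 for these genes thus does not show that the cells were absent, and its reason was not tested. Without K5S4285 the MHC class I median was 0.51, with 15 of 17 genes higher and 9 at an unadjusted p under 0.05, in place of 13. K5S5118 lay level with the highest WT library in the mean log2 level of the list, at 4.40 each. Among the libraries without Xist the median was 1.02, and without both slow-fibre-poor WT libraries it was 0.76. In bulk tissue more cells of a type and more RNA per cell cannot be told apart.

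**Figure D3:**
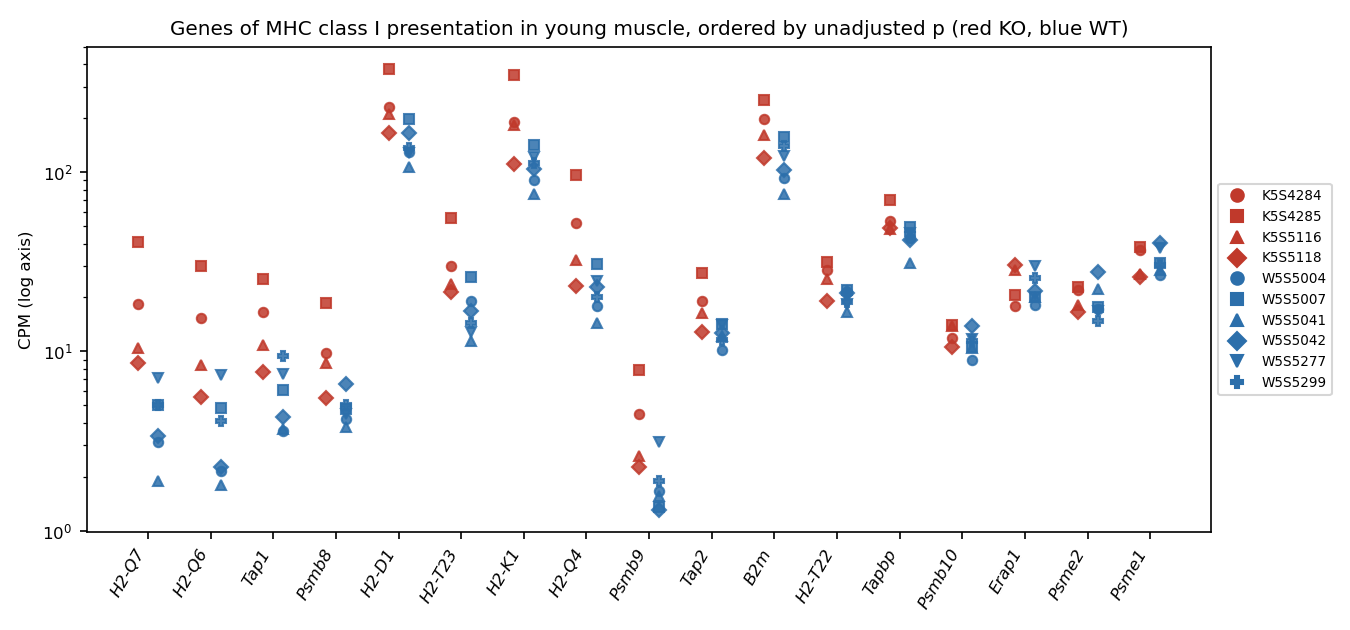
CPM on a log axis of the 17 genes of MHC class I presentation, ordered by unadjusted p, with each KO library in red and each WT library in blue. K5S4285 (red square) is the highest library for H2-Q7, at 40.9 CPM, and the groups separate in H2-Q7 alone.

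Interferon-response genes, of which class I genes are a subset in function, were higher by less. Of 42 tested, 35 had a higher mean in KO, with a median of 0.25, where 6723 of all 12748 genes were higher. An unadjusted p under 0.05 was reached by 4, all higher, where 2.18% of all genes were. Gbp3, an interferon-induced GTPase, had 8.17, 12.2, 6.21 and 4.72 CPM in KO and 1.59 to 6.56 CPM (median 2.85) in WT (log2 difference 0.96, SE 0.331). Rsad2, the antiviral enzyme viperin, differed by 0.70 (SE 0.257) and Ifit2 by 0.49 (SE 0.179). WT libraries were uneven here: W5S5042, W5S5277 and W5S5299 lay above the lower pair of KO libraries in mean log2 level, and without the last pair the median was 0.41. The interferon genes Ifng and Ifnb1 were at 0 in all 10 libraries except 0.225 CPM of Ifng in K5S4285.

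The promoters of both lists often held a core of the interferon-stimulated response element. TTTCNNTT on either strand was found in 10 of 16 matched MHC class I promoters (62.5%), in 23 of 30 interferon-response promoters (76.7%), in 17.8% of promoters of all genes tested and in 24.1% of all promoters. Stretches of 60 bases upstream of the start are shown for 4 members, gene strand, with the match in capitals; in B2m the match is on the opposite strand. They lie on chr17:35439016-35439075 (H2-Q7, plus strand), chr17:35262918-35262977 (H2-D1, plus strand), chr2:122147524-122147583 (B2m, plus strand) and chr17:36032792-36032851 (H2-T23, minus strand).
H2-Q7: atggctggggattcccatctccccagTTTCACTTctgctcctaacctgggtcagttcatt
H2-D1: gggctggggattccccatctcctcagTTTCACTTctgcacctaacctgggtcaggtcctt
B2m: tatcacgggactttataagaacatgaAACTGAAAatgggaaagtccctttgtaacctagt
H2-T23: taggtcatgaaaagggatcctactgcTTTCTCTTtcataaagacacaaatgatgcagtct
H2-Q7 and H2-D1 carry the same 8 bases, which end 106 and 143 bases before their starts. These matches describe the letters and are not sites of measured binding.

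Genes of Schwann cells, the cells that wrap peripheral nerve, had higher means in KO as a group. All 8 markers were higher, with a median log2 difference of 0.69. An unadjusted p under 0.05 was reached by 5, where 2.18% of all genes were higher at that p, and 0 passed the adjusted threshold. Prx, a protein of peripheral myelin, had 33, 28.9, 44.1 and 25.9 CPM in KO and 11.2 to 35.3 CPM (median 16.1) in WT (log2 difference 0.83, SE 0.275). Mag, a myelin adhesion protein, differed by 0.74 (SE 0.232) and Cnp, a myelin enzyme, by 0.51 (SE 0.194). The summed markers were 166 to 279 CPM in KO and 75.3 to 242 CPM in WT, where W5S5042 lay within the KO range. Without both slow-fibre-poor WT libraries the median was 0.48 and 1 of 8 had an unadjusted p under 0.05. The amount of nerve in each sample was not tested.

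Genes of the nerve-muscle synapse were mixed. Of 18 tested genes of the junction and of denervation, 11 were higher and 7 lower, with a median of 0.068. Chrnd, the delta subunit of the acetylcholine receptor, had 6.32, 4.83, 4.44 and 5.11 CPM in KO and 2.83 to 4.5 CPM in WT (log2 difference 0.47, SE 0.148). Chrne, the adult epsilon subunit, differed by 0.43 (SE 0.177). Myog, the transcription factor myogenin, which activates receptor genes after denervation, differed by 0.82 with a wide error (SE 0.474), since it ran from 2.97 to 17.8 CPM among WT libraries.

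Most marker lists of other cells had higher means in KO, by amounts that depended on the libraries included. The largest median was that of the neutrophil markers, 1.1 over 3 of 8 markers tested, all higher. The 8 markers summed to 95.9, 6.63, 22.9 and 1.66 CPM in KO and 0.483 to 31.8 CPM in WT, so K5S4284 was the highest library, and the median without it was 0.44. All 9 tested adipocyte markers were higher, with a median of 0.35, which was 0.037 without K5S4285. Of 9 macrophage markers 8 were higher (median 0.33, and 0.12 without both slow-fibre-poor WT libraries).

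Markers of vessels and connective tissue were also higher, by less. All 8 endothelial markers were higher, with a median of 0.21 that ran from 0.086 among libraries without Xist to 0.28 without both slow-fibre-poor WT libraries. All 8 fibroblast markers were higher, with a median of 0.20 that ran from 0.049 among libraries without Xist to 0.30 without K5S4285. Of 8 tendon markers 7 were higher, with a median of 0.19 that ran from 0.012 without K5S5116 to 0.59 without K5S4285. All 6 smooth muscle markers were higher, with a median of 0.20 that ran from 0.13 without K5S5116 to 0.31 without K5S4285. The 3 tested hepatocyte markers were higher (median 0.42, but -0.033 without W5S5041), and 3 of 5 erythroid markers were lower (median -0.030, but 0.58 among libraries without Xist). Pecam1, the endothelial adhesion protein, had 170 to 204 CPM in KO and 131 to 183 CPM in WT (log2 difference 0.30, SE 0.118). Lep, the adipocyte hormone leptin, had 0.924, 1.8, 4.69 and 4.18 CPM in KO and 0 to 1.86 CPM in WT. The part of such cells in the differences above was not tested.

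Slow-fibre genes differed widely between libraries within both groups. Myh7, the myosin of slow fibres, had 110, 1743, 379 and 406 CPM in KO and 1506, 1446, 84.3, 242, 5.25 and 6.33 CPM in WT (W5S5004, W5S5007, W5S5041, W5S5042, W5S5277, W5S5299). WT libraries thus ranged from 5.25 to 1506 CPM, while Actn3, the actinin of fast fibres, stayed within 8484 to 10075 CPM in KO and 8902 to 12279 CPM in WT. Tnnt1, the slow troponin T, followed Myh7, with 37.3 to 424 CPM in KO and 3.73 to 324 CPM in WT. The 11 slow-fibre genes had a median log2 difference of 0.61, but -0.17 without W5S5277 and W5S5299, and the Myh7 difference of 1.88 (SE 1.61) became -0.15. Myh7b, a related myosin, differed by 0.60 (SE 0.269), and Myh2, the myosin of fast oxidative fibres, by 0.72 (SE 0.446). Which muscle was dissected is not in the labels.

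**Figure D4:**
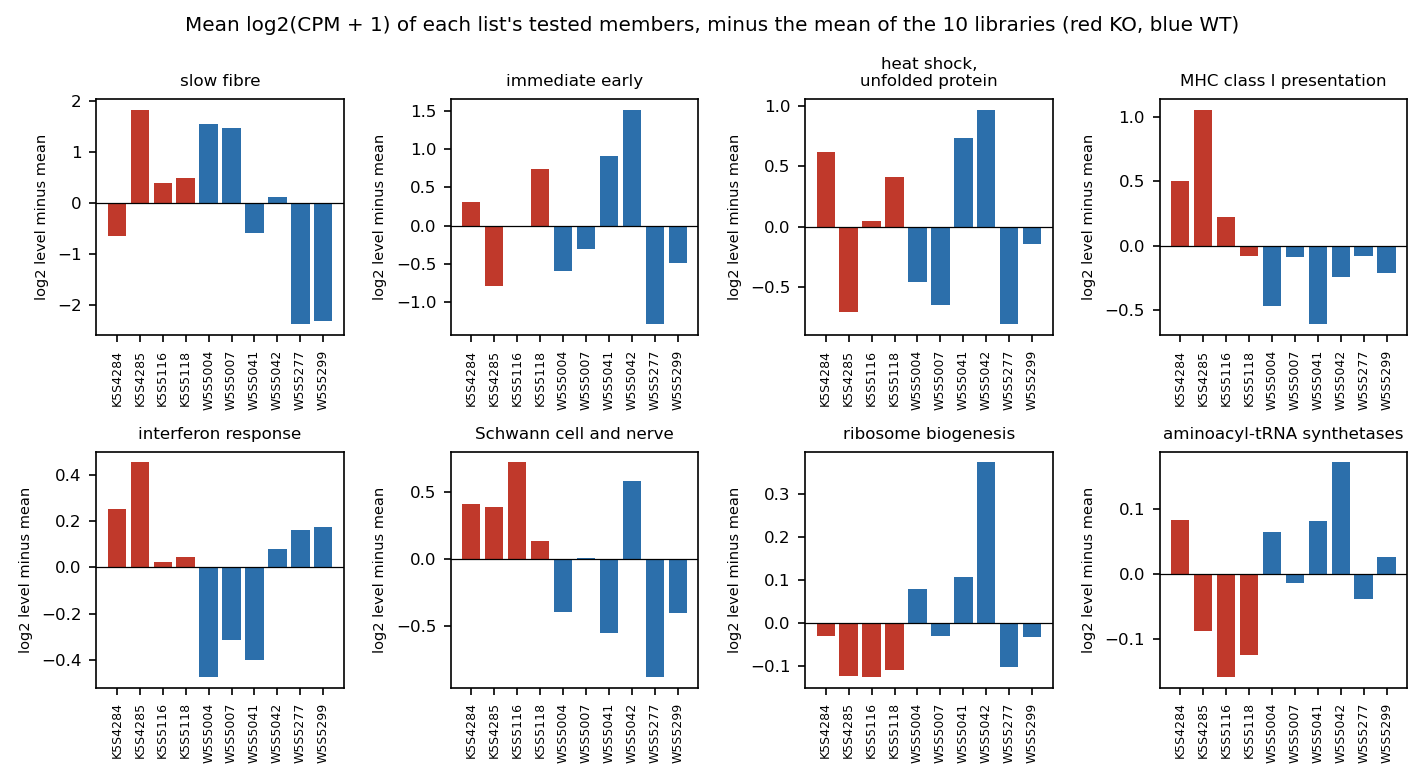
Mean log2(CPM + 1) of the tested members of 8 gene lists in each library, minus the mean of the 10 libraries (vertical axis), with KO in red and WT in blue. W5S5277 and W5S5299 are lowest in slow-fibre genes, W5S5042 is highest in immediate early, heat shock and ribosome biogenesis genes, and K5S4285 is highest in MHC class I genes.

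Immediate early, heat shock and stress genes also varied between libraries of the same genotype. The largest spreads among genes with at least 50 CPM, after Xist and the Y-linked Ddx3y, were in Hspa1b, Myh7, Hspa1a and Ankrd1. Hspa1b had 1623, 17, 422 and 1273 CPM in KO and 7.6 to 4348 CPM in WT, and Ankrd1 had 774, 13.5, 978 and 1176 CPM in KO and 24.3 to 2140 CPM in WT. Medians were 0.064 for 27 immediate early genes and 0.066 for 25 heat shock and unfolded protein genes. Hsph1, a cochaperone, differed by -0.46 (SE 0.214) and Jund, a partner of Fos, by 0.52 (SE 0.279). Cdkn1a, the cell cycle inhibitor p21, had 273 to 667 CPM in KO and 22.9 to 750 CPM in WT. Its log2 difference was 0.91 (SE 0.826), and -0.13 without both slow-fibre-poor WT libraries.

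Metabolic lists showed small median differences. Of 32 genes of fatty acid oxidation and PPAR targets, 26 were higher in KO, with a median of 0.12, which ran from 0.037 without W5S5299 to 0.23 among libraries without Xist. Plin5, which coats lipid droplets at mitochondria, had 84.9, 116, 83.2 and 99.2 CPM in KO and 51.7 to 87.6 CPM in WT (log2 difference 0.41, SE 0.153). Acot1, an acyl-CoA thioesterase, differed by 1.06 (SE 0.508), with 57 CPM in K5S4285, and Slc25a20, the carnitine carrier, by 0.29 (SE 0.147). Of 25 glycolysis and glycogen genes 19 were lower, with a median of -0.074, and Phka1, a subunit of phosphorylase kinase, differed by -0.24 (SE 0.131). Pdk4, which turns muscle from glucose to fat as fuel, differed by 0.33 (SE 0.194), and Angptl4, a lipase inhibitor, by 0.49 (SE 0.278).

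Growth arrest, atrophy and matrix genes did not separate the groups. Of 25 atrophy and FoxO genes 21 were higher, but the median of 0.096 was -0.19 without both slow-fibre-poor WT libraries. Of 22 extracellular matrix genes 19 were higher (median 0.23), but the median was -0.22 among libraries without Xist, and Sparc, a collagen-binding matrix protein, differed by 0.28 (SE 0.171). Of 21 tested p53 targets 10 were higher and 11 lower. Eda2r, a p53-induced receptor, had 23.9, 42, 28.1 and 22.1 CPM in KO and 22 to 83.1 CPM (median 60) in WT (log2 difference -0.80, SE 0.354). Ccng1, another p53 target, had 646, 749, 668 and 729 CPM in KO and 747 to 903 CPM in WT (log2 difference -0.21), and Aen differed by -0.19 (SE 0.107).

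Among cell cycle genes 10 of 20 were higher and the median was -0.0034. Cdk2, a kinase of the G1/S transition, had 6.82, 8.65, 8.43 and 7.77 CPM in KO and 4.35 to 6.77 CPM in WT, the 1 tested member of 20 without overlap, beside 0.494% of all genes that lay above WT (log2 difference 0.46, SE 0.135). Cdkn1b, the inhibitor p27, differed by 0.33 (SE 0.142). Of 16 senescence and secretory genes 12 were higher (median 0.17), and Igfbp3, an IGF-binding protein, had the smallest p, at 0.52 (SE 0.281). The circadian clock list had a median of 0.022, with Npas2 at 0.61 (SE 0.265) and Nr1d2 at -0.39 (SE 0.224), and Heyl of the myogenic and satellite cell list differed by 0.62 (SE 0.307).

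The 20-month muscle libraries, 5 KO and 5 WT from other samples, allow the genes picked at 5 months to be read again. At that age limma called 3 of 12505 genes (0.024%), and 2089 (16.7%) had an unadjusted p under 0.05, 7.05% higher and 9.65% lower in KO. Of the 63 genes above all WT libraries at 5 months, 59 were tested at 20 months, 44 (74.6%) were again higher and 20 (33.9%) had an unadjusted p under 0.05. For genes higher at 5 months in general, 57% were again higher and 10.6% had such a p. Of the 24 genes below all WT libraries, 21 (87.5%) were again lower and 6 (25%) had such a p, against 68.6% and 13.8% of all genes that were lower at 5 months. The strain names of KO and WT mice are the same at both ages, so sequence differences between lines would repeat as well.

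Several named genes did not overlap at 20 months either. H2-Q7 had 16.1 ± 2.95 CPM in old KO and 6.66 ± 3.08 CPM in old WT, without overlap (log2 difference 1.25, SE 0.268, limma adjusted p 0.210). Amotl2 differed by 0.998 (SE 0.204), Atp2a3 by 0.57 (SE 0.157), Cldn1 by 0.37 (SE 0.119) and Cct6a by -0.37 (SE 0.107), each without overlap at both ages, and Tmem267 by -1.02 (SE 0.232), also without overlap. Itpr3 (0.40, SE 0.169), Fmo1 (0.35, SE 0.131), Hacd1 (-0.735, SE 0.261) and Kcng4 (-0.72, SE 0.257) kept their direction with overlap. Tars (-0.021, SE 0.0961), Dmpk (-0.067, SE 0.110), Tmcc1 (-0.038, SE 0.128) and C130074G19Rik (-0.030, SE 0.142) were close to 0. Pprc1 was at 0.20 (SE 0.176), the opposite sign. Kcnh6, called at 20 months, had 12.4 ± 6.32 CPM in old KO and 1.28 ± 0.663 CPM in old WT (limma adjusted p 0.00673). C130046K22Rik, also called, had 2.37 ± 0.284 CPM in old KO and was at 0 in all 5 old WT libraries.

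The MHC class I, Schwann cell and ribosome assembly lists had medians of the same sign at 20 months. The MHC class I median was 0.42, with 9 of 17 genes higher at an unadjusted p under 0.05, where 7.05% of all genes were. The Schwann cell median was 0.47 over 7 tested genes. The ribosome assembly median was -0.083, beside -0.033 for all genes. At that p 9 of its 50 genes were lower and none higher, where 9.65% of all genes were lower. Myc itself was 5.98 ± 3.83 CPM in old KO and 7.91 ± 3.21 CPM in old WT muscle. The oxidative phosphorylation median was -0.34, with 61 of 79 genes lower at that p. Medians were -0.26 for cytosolic and -0.25 for mitochondrial ribosomal protein genes, with 1 of 83 and 0 of 78 higher. At 20 months these lists thus lay further below 0 than the ribosome assembly genes. No gene of 13237 passed the adjusted test of the difference between the KO effects at the 2 ages in limma (0%), and 438 (3.31%) had an unadjusted p under 0.05. edgeR gave 496 at that level, and DESeq2 called 1, C130046K22Rik. The ages also differed in sex make-up, since Xist was present in 4 of 10 young and 0 of 10 old muscle libraries, and the difference was not fitted without those 4. With Xist as a covariate limma again called 0 genes for the difference between ages, with 460 at an unadjusted p under 0.05. Among the young libraries without Xist the medians were 1.02 for MHC class I, 0.84 for Schwann cell and -0.043 for ribosome assembly genes.

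**Figure D5:**
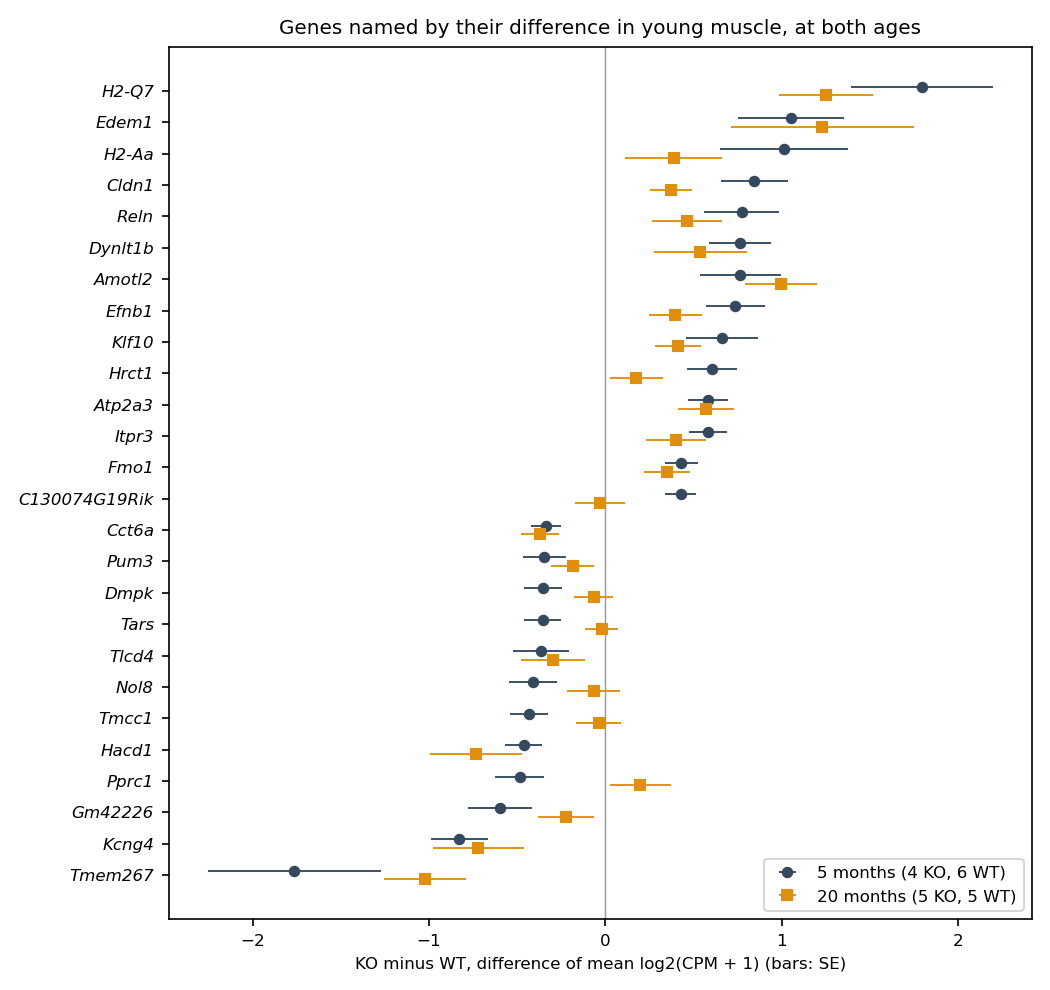
Log2 differences (KO minus WT, horizontal axis, bars 1 SE) of the genes named for non-overlapping groups or a DESeq2 call in young muscle, at 5 months (dark circles) and at 20 months (orange squares). H2-Q7, Amotl2, Atp2a3, Cldn1, Cct6a and Tmem267 lie on the same side of 0 at both ages with no overlap between groups, and Pprc1 changes side.

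The same genes in liver and omental fat of 5-month-old mice are given as values, since a difference between tissues was not tested. Most numbers in the muscle codes recur in the liver or adipose codes, as in K5S4284, K5L4284 and K5F4284. If a number marks a mouse, these tissues are not an independent repeat of the muscle comparison. Myc had means of 2.59 CPM in KO and 19.6 CPM in WT liver and 5.76 and 17.7 CPM in adipose tissue, without overlap in either. Pvt1 was higher without overlap in KO liver (5.06 against 1.18 CPM) and adipose tissue (11.6 against 2.12 CPM). Tmem267 averaged 6.95 against 20.6 CPM in liver and 4.44 against 8.35 CPM in adipose tissue, and H2-Q7 160 against 80.6 CPM and 44.1 against 19.7 CPM, all with overlap. Dynlt1b had a higher mean in KO in both, with 14.4 against 6.78 CPM in liver and 29.5 against 16.3 CPM in adipose tissue. Atp2a3 and Fmo1 had lower means in KO adipose tissue (36.1 against 50.1 CPM, and 65.6 against 99.9 CPM). The MHC class I median was 0.43 in liver and 0.18 in adipose tissue, and the ribosome assembly median was -0.27 and -0.15.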

How the data were processed

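Muscle RNA from a kit for lipid-rich tissue was selected for poly-A transcripts and made into strand-marking libraries, per the labels' protocols. The authors deposited 1 table of 36333 gene entries by 64 libraries whose columns are called CPM, per the file headers; its sums (1.15 M to 1.30 M in young muscle) exceed that of a true CPM, so it is recorded as a signal, in which 1 read of a library is worth the same for every gene, as the authors deposited it. Build GRCm38.p6 is given per the submitters' processing notes; aligner and strand use are not given in the sources used here. Whole reads were recovered in each young muscle library (100% of values within 0.01 of a whole read). Symbols matched 35336 of 36332 IDs in RefSeq, and 996 had none.

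Genes above 1 CPM in 4 or more of the 10 libraries entered limma 3.58.1 (R 4.3.3) on the log2(CPM + 1) scale (trend over level, Benjamini-Hochberg, called at adjusted p under 0.05). Log2 differences on this scale understate changes of low genes. Alternatives were edgeR 4.0.16 and DESeq2 1.42.0 on recovered reads, another pseudocount (0.1), no filter, TMM-type factors, an Xist covariate, array weights and leaving out libraries. Old muscle used a minimum of 5 of 10 libraries. Myc had a two-sided exact permutation test (scipy 1.17.1, the smaller tail doubled). No pair of libraries agreed within sampling noise.

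The members and lists were chosen with earlier results of these data known. Named genes are those of the Myc network, engineered loci and genes called in other KO comparisons, the 10 largest rises and falls without overlap at 5 CPM or more, 3 per list with the smallest p, the 6 with the largest spread at 50 CPM or more, and those a count test called; genes named otherwise are marked. Lists are described by counts and medians, without a set test. Of the list genes, 2 (Mx1, Mx2) were not matched. Counting error is not the only error here, since reads are not independent molecules. Tests were checked on simulated data.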

Additional observations from a re-analysis of the deposited data

Results flagged for a closer look

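In 246 groups of values, from the named genes and the list levels, 12 held a library far from the others by Dixon's criterion; chance flags about 1 in 20. Levels are log2(CPM + 1). W5S5042 was apart in Pprc1 (5.87), Kcng4 (4.53, lowest), Ctps (5.03) and the mean level of the metabolic and growth targets of Myc (5.88). It is also the WT library with the most Myc, 81.3 CPM. K5S4284 was apart among KO libraries in the metabolic and growth targets (5.69), the skeletal muscle markers (12.81) and Mrpl42 (7.48). W5S5277 was the lowest WT library in Mnt (4.49) and Mxd1 (2.85). K5S5116 was highest in Cldn1 (3.74), K5S4285 in Angptl4 (6.36), and W5S5041 was lowest in adipocyte markers (3.31).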

How the results depend on the processing

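The count of genes called in young muscle was 0 in limma and in each alternative but DESeq2, which called 9. For old muscle it was 3, with 158 by DESeq2, 1 without the filter and 0 to 5 when 1 library was left out (0 without KO replicate 1, 5 without KO replicate 5 of that age). For the difference between ages it was 0, and 1 by DESeq2. The Myc difference of -1.13 ran from -1.46 to -0.75 when 1 library was left out, past the threshold only without W5S5277. Of 1804 pairs of a named gene and a setting, 1791 kept their side of 0 and of the threshold and 9 passed it under DESeq2. In 4 the sign changed: without both slow-fibre-poor WT libraries in Myh7 (-0.15), Tnnt1 (-0.041) and Cdkn1a (-0.13), and among libraries without Xist in Acbd4 (0.0030); the cause was not tested. Of 38 list medians, 19 changed sign in a setting, MHC class I, interferon, Schwann cell and ribosome assembly not among them. No paired analysis was possible because the KO and WT codes of young muscle share no number. With 4 against 6 libraries and 2 WT libraries far apart in slow-fibre and other genes, small differences were not detectable here. That does not show that they are absent.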
